A study of Mus musculus with 6 samples.

Results

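The interferon regulatory factors (IRFs) are DNA-binding proteins that share a winged helix-turn-helix domain and bind repeats of a GAAA core. The 8 members described here, Irf1, Irf2, Irf3, Irf4, Irf5, Irf7, Irf8 and Irf9, were chosen by gene symbol alone: every probe set of the array annotated to 1 of these symbols was taken, which gave 9 probe sets because Irf1 had 2. They are 8 of 19938 genes with a single symbol, and 9 of 23410 named probe sets tested. The levels came from 6 Affymetrix whole-transcript arrays, 2 for each of 3 sorted groups of mouse T cells, and are probe-set values on the log2 scale. All cells were CD4+ CD44+, that is, antigen-experienced helper T cells, and came from the draining lymph nodes of male mice of 8 to 10 weeks. All mice carried a red fluorescent reporter of Bcl6 and had been immunised with the protein KLH in complete Freund's adjuvant (CFA). Cxcr5+Bcl6+ cells carried the follicle-homing receptor Cxcr5 and the reporter, Cxcr5+Bcl6- cells carried the receptor without the reporter, and Cxcr5-Bcl6- cells carried neither. The series calls the 2 arrays of a group biological replicates. The labels do not say if mice were pooled for a sort, so the p-values measure the spread between these arrays.

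IRFs fall into groups by role. Irf3, Irf5 and Irf7 are activated downstream of sensors of foreign nucleic acid and switch on interferon genes, and Irf9 works with Stat2 in the answer to type I interferon. Irf1 is induced by interferon gamma and activates its target genes, whereas Irf2 binds the same sites and can oppose it. Irf4 is induced by antigen receptor signalling and, with Batf and Jun proteins, is required for helper T cell effector programmes, the follicular one included. Irf8 is best known from dendritic cells, B cells and macrophages, where it partners the Ets proteins PU.1 and Spib, and it is also expressed in activated T cells.

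Promoter sequences of Irf1, Irf8 and Irf2 are shown because a window of each held an exact match to the interferon-linked motifs searched, and no other IRF window did. The windows are the 250 bases before the RefSeq transcript start in GRCm38.p6, 11 windows for the 8 genes, and all 3 genes lie on the plus strand. The core of the GAS element, a motif of interferon gamma-responsive promoters, was searched as TTCNNNGAA, and the core of the interferon-stimulated response element, to which IRFs bind, as a pair of GAAA repeats separated by any 2 bases, both on either strand. Capitals mark the matches.
Irf1, chr11:53769764-53770013: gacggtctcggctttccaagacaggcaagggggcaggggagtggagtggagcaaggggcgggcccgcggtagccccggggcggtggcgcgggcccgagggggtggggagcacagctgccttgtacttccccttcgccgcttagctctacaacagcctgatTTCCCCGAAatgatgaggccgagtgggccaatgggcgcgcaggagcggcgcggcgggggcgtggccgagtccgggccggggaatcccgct
Irf8, chr8:120736108-120736357: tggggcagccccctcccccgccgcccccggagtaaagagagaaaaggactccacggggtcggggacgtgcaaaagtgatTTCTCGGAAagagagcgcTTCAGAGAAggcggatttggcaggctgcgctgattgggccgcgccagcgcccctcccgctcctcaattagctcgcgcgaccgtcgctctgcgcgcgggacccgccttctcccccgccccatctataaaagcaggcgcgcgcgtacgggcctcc
Irf2, chr8:46739495-46739744: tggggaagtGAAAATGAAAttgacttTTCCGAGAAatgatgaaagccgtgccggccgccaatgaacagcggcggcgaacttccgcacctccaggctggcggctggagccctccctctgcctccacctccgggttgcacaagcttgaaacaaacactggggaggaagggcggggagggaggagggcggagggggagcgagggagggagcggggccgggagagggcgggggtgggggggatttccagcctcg
The Irf1 window shown held 1 GAS core, TTCCCCGAA, whose first base lay 90 bases before the start. The Irf8 window shown held 2 GAS cores, TTCTCGGAA at 171 bases and TTCAGAGAA at 153 bases before the start. Irf1 and Irf8 each had another window, at another transcript start, that held no match. The Irf2 window held a GAS core, TTCCGAGAA at 224 bases, and the only interferon-stimulated response element core among the IRF windows, GAAAATGAAA at 241 bases. No match overlapped another. GAS cores were in 3 of the 11 IRF windows, against 7.02% of 32851 promoter windows of the table, and response element cores in 1 of 11, against 2.98%. These matches describe the letters and do not show binding, and a window without a match says nothing on the factors.

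The probe sets for the sorted genes moved with the sort. Bcl6 averaged 11.50 ± 0.070 in Cxcr5+Bcl6+ cells, 10.56 ± 0.0069 in Cxcr5+Bcl6- cells and 10.31 ± 0.0024 in Cxcr5-Bcl6- cells (log2, SD, n = 2 each), and Cxcr5 averaged 10.995, 9.94 and 7.47 in the same 3 groups. T cell core genes (Cd3e, Cd4 and others, 11 measured) all lay, in every group, above the 95th percentile of a set of chemosensory receptor genes (olfactory, vomeronasal and trace-amine) that are silent in T cells. Across all named probe sets the limma test, adjusted by Benjamini-Hochberg and called under 0.05, gave 8255 calls for Cxcr5+Bcl6+ against Cxcr5-Bcl6- cells, 2610 for Cxcr5+Bcl6- against Cxcr5-Bcl6- cells, and 6185 for Cxcr5+Bcl6+ against Cxcr5+Bcl6- cells. The 3 comparisons share arrays and are not independent. The median of the 1223 receptor probe sets was 5.96 in Cxcr5+Bcl6+ cells, 5.65 in Cxcr5+Bcl6- cells and 5.72 in Cxcr5-Bcl6- cells. Centring the arrays on these receptor medians moved the median difference of all named probe sets to -0.20 for Cxcr5+Bcl6+ against Cxcr5-Bcl6- cells and to -0.27 for Cxcr5+Bcl6+ against Cxcr5+Bcl6- cells, and the sign or call of an IRF gene that turns on this scaling is named beside it. The 95th percentile of the receptor probe sets was 7.75, 7.31 and 7.38 in the same groups. No detection calls were used, so a level under its group's percentile is called receptor-range below, and a difference against such a level is one of measured values that gives no more than a lower limit of the change. As these are bulk sorts, fewer cells of a type and less RNA per cell cannot be told apart.

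Among the IRF genes, 7 of 8 differed between Cxcr5+Bcl6+ and Cxcr5-Bcl6- cells, 6 lower and 1 higher, where 35.3% of all named probe sets were called, 17.7% lower and 17.6% higher. The median difference of the 8 genes was -1.08 on the log2 scale, beside 0.042 over all genes. Between Cxcr5+Bcl6+ and Cxcr5+Bcl6- cells 5 of 8 fell and none rose, where 26.4% of probe sets were called, 13.0% lower and 13.4% higher. The median difference there was -0.87, beside 0.055 over all genes. Between Cxcr5+Bcl6- and Cxcr5-Bcl6- cells 2 of 8, Irf4 and Irf8, fell and none rose, where 11.1% of probe sets were called, 5.93% lower and 5.22% higher. The median difference was -0.24, beside -0.031 over all genes. The IRF genes that fell by more than 1 log2 unit in Cxcr5+Bcl6+ cells against Cxcr5-Bcl6- cells were Irf8, Irf7, Irf1 and Irf4.

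**Figure D1:**
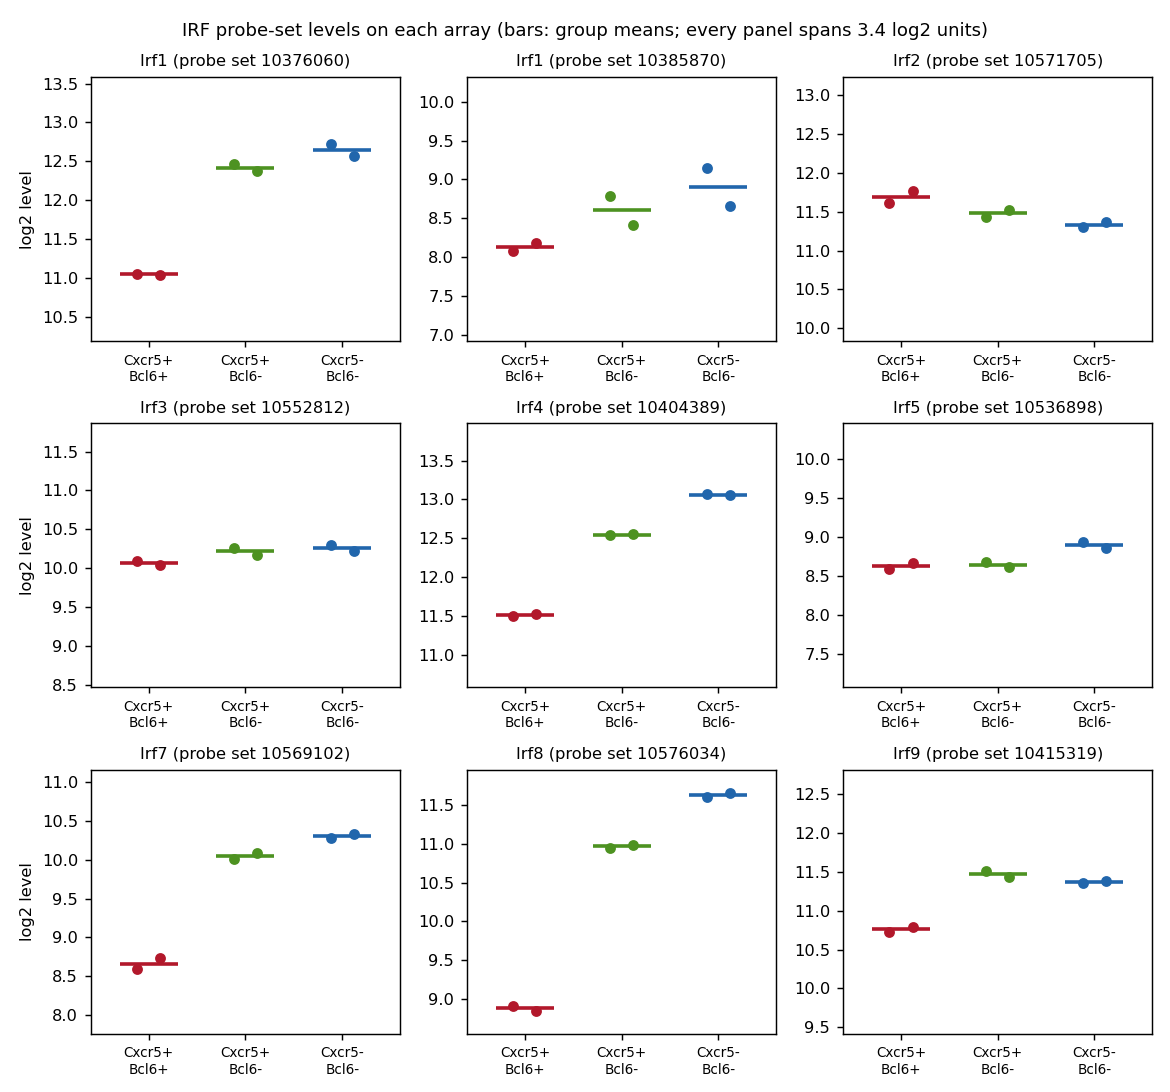
Levels of the 9 IRF probe sets on each of the 6 arrays (y axis, log2 level; x axis, sorted group; bars, group means of 2 arrays). Irf1, Irf4, Irf7, Irf8 and Irf9 sit lowest on both Cxcr5+Bcl6+ arrays, Irf2 sits highest on them, and Irf3 and Irf5 stay within a narrow range.

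Irf1, the activator of interferon gamma target genes, was measured by a bright probe set, 10376060. Its levels were 11.05 and 11.04 in Cxcr5+Bcl6+ cells, 12.46 and 12.38 in Cxcr5+Bcl6- cells, and 12.72 and 12.57 in Cxcr5-Bcl6- cells. Both Cxcr5+Bcl6+ arrays lay more than 1 log2 unit below the other 4, and no group overlapped another. The Irf1 difference was -1.603 on the log2 scale (SE 0.092, limma adjusted p = 1.78e-07), or 3.04-fold lower, in Cxcr5+Bcl6+ against Cxcr5-Bcl6- cells. It fell by 1.37 (limma adjusted p = 9.96e-07), or 2.59-fold, against Cxcr5+Bcl6- cells. Between Cxcr5+Bcl6- and Cxcr5-Bcl6- cells the difference of -0.23 (95% interval -0.43 to -0.028) did not pass the threshold (limma adjusted p = 0.158). A second probe set with the Irf1 symbol, 10385870, was dimmer and more variable. It gave 8.08 and 8.18 in Cxcr5+Bcl6+ cells, 8.78 and 8.42 in Cxcr5+Bcl6- cells, and 9.15 and 8.66 in Cxcr5-Bcl6- cells. It pointed the same way with smaller differences, -0.77 against Cxcr5-Bcl6- cells (limma adjusted p = 0.00221) and -0.47 against Cxcr5+Bcl6- cells (limma adjusted p = 0.0452). The call against Cxcr5+Bcl6- cells was lost in 6 of 18 alternative settings, among them leaving out Cxcr5+Bcl6+ replicate 1 (adjusted p = 0.226), Cxcr5+Bcl6+ replicate 2 (0.126) or Cxcr5+Bcl6- replicate 1 (0.294).

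Irf2, which can occupy the sites of Irf1 and hold its targets down, went the other way. Its levels were 11.62 and 11.76 in Cxcr5+Bcl6+ cells, 11.43 and 11.52 in Cxcr5+Bcl6- cells, and 11.30 and 11.36 in Cxcr5-Bcl6- cells. The 3 groups were in this order without overlap, and the whole spread was small. Irf2 rose by 0.36 on the log2 scale (SE 0.093), or 1.28-fold, in Cxcr5+Bcl6+ against Cxcr5-Bcl6- cells (limma adjusted p = 0.0104). The call was lost when arrays were centred on receptor genes (0.11, adjusted p = 0.354) and without Cxcr5+Bcl6+ replicate 2 (0.28, adjusted p = 0.0664). Against Cxcr5+Bcl6- cells the difference was 0.21 (95% interval 0.008 to 0.42, adjusted p = 0.119), and it turned to -0.12 with centring on receptor genes. In Cxcr5+Bcl6- against Cxcr5-Bcl6- cells the Irf2 difference was 0.14 (95% interval -0.059 to 0.35, limma adjusted p = 0.448).

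Irf9, the DNA-binding part of the complex formed after type I interferon, did not differ past the threshold between the 2 Bcl6- groups and was lower in Cxcr5+Bcl6+ cells. Its levels were 10.73 and 10.79 in Cxcr5+Bcl6+ cells, 11.51 and 11.44 in Cxcr5+Bcl6- cells, and 11.36 and 11.38 in Cxcr5-Bcl6- cells. It fell by 0.71 (SE 0.087), or 1.64-fold, in Cxcr5+Bcl6+ against Cxcr5+Bcl6- cells (limma adjusted p = 0.000113). It fell by 0.61, or 1.53-fold, against Cxcr5-Bcl6- cells (limma adjusted p = 0.000177). Cxcr5+Bcl6- cells lay 0.10 above Cxcr5-Bcl6- cells (95% interval -0.091 to 0.29, limma adjusted p = 0.622). Its partner Stat2 differed by -0.73 against Cxcr5+Bcl6- cells (limma adjusted p = 0.000311), by -0.63 against Cxcr5-Bcl6- cells, and by 0.097, which did not pass, in Cxcr5+Bcl6- against Cxcr5-Bcl6- cells.

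Irf7, the interferon-inducible factor that amplifies type I interferon production, had levels of 8.59 and 8.74 in Cxcr5+Bcl6+ cells, 10.005 and 10.08 in Cxcr5+Bcl6- cells, and 10.28 and 10.33 in Cxcr5-Bcl6- cells. The Cxcr5+Bcl6+ arrays stood apart from all 4 others. Irf7 fell by 1.64 (SE 0.093), or 3.12-fold, in Cxcr5+Bcl6+ against Cxcr5-Bcl6- cells (limma adjusted p = 1.59e-07) and by 1.38, or 2.602-fold, against Cxcr5+Bcl6- cells (limma adjusted p = 1.04e-06). Between Cxcr5+Bcl6- and Cxcr5-Bcl6- cells it differed by -0.26 (95% interval -0.47 to -0.057, limma adjusted p = 0.108), which did not pass.

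Irf3, constitutively expressed and activated by phosphorylation, showed no difference that passed in any comparison. Its levels were 10.09 and 10.03 in Cxcr5+Bcl6+ cells, 10.26 and 10.17 in Cxcr5+Bcl6- cells, and 10.29 and 10.22 in Cxcr5-Bcl6- cells. The difference was -0.19 between Cxcr5+Bcl6+ and Cxcr5-Bcl6- cells (95% interval -0.39 to 0.0013, limma adjusted p = 0.118), and centring on receptor genes made it a call (-0.44, adjusted p = 0.00359). It was -0.15 against Cxcr5+Bcl6- cells (95% interval -0.35 to 0.042, adjusted p = 0.236), likewise called with centring on receptor genes (-0.48, adjusted p = 0.00181). The 2 Bcl6- groups overlapped, with a difference of -0.041 (95% interval -0.24 to 0.15, adjusted p = 0.888) that turned to 0.045 with centring on receptor genes. Irf5, which acts in Toll-like receptor signalling of myeloid cells and B cells, had levels of 8.59 and 8.66 in Cxcr5+Bcl6+ cells, 8.67 and 8.61 in Cxcr5+Bcl6- cells, and 8.94 and 8.86 in Cxcr5-Bcl6- cells. The 2 Cxcr5+ groups overlapped and both lay below the Cxcr5-Bcl6- arrays. Irf5 fell by 0.27 (SE 0.089), or 1.21-fold, in Cxcr5+Bcl6+ against Cxcr5-Bcl6- cells (limma adjusted p = 0.0311), a call lost in 7 of 19 alternative settings. These included leaving out Cxcr5+Bcl6+ replicate 1 (-0.24, adjusted p = 0.116), Cxcr5-Bcl6- replicate 1 (-0.24, adjusted p = 0.129) or either Cxcr5+Bcl6- array (adjusted p = 0.0693 each). The difference between Cxcr5+Bcl6- and Cxcr5-Bcl6- cells was -0.26 (limma adjusted p = 0.0939), a call when only probe sets with a mean above the median were tested (adjusted p = 0.0440). Between the Cxcr5+ groups it was -0.016 (95% interval -0.21 to 0.18, limma adjusted p = 0.919), and -0.34 (adjusted p = 0.0115) with centring on receptor genes.

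Irf4, the antigen receptor-induced member, had a graded order across the groups. Its levels were 11.49 and 11.53 in Cxcr5+Bcl6+ cells, 12.54 and 12.55 in Cxcr5+Bcl6- cells, and 13.06 and 13.06 in Cxcr5-Bcl6- cells. Replicate arrays differed by less than 0.05, and each group was separate from the next. Irf4 fell by 0.52 (SE 0.085), or 1.43-fold, in Cxcr5+Bcl6- against Cxcr5-Bcl6- cells (limma adjusted p = 0.00227). It fell by 1.03, or 2.05-fold, in Cxcr5+Bcl6+ against Cxcr5+Bcl6- cells (limma adjusted p = 5.3e-06). Together these make 1.55, or 2.93-fold, between Cxcr5+Bcl6+ and Cxcr5-Bcl6- cells (limma adjusted p = 1.22e-07).

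Irf8 differed most of all IRF genes. Its levels were 8.91 and 8.85 in Cxcr5+Bcl6+ cells, 10.95 and 10.99 in Cxcr5+Bcl6- cells, and 11.59 and 11.65 in Cxcr5-Bcl6- cells. Every group was separate, and the Cxcr5+Bcl6+ arrays lay about 2 log2 units below the Cxcr5+Bcl6- arrays. Irf8 fell by 2.74 (SE 0.087), or 6.70-fold, in Cxcr5+Bcl6+ against Cxcr5-Bcl6- cells (limma adjusted p = 2.26e-09). It fell by 2.09, or 4.25-fold, against Cxcr5+Bcl6- cells (limma adjusted p = 3.18e-08). Between Cxcr5+Bcl6- and Cxcr5-Bcl6- cells it fell by 0.66, or 1.58-fold (limma adjusted p = 0.000521).

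**Figure D2:**
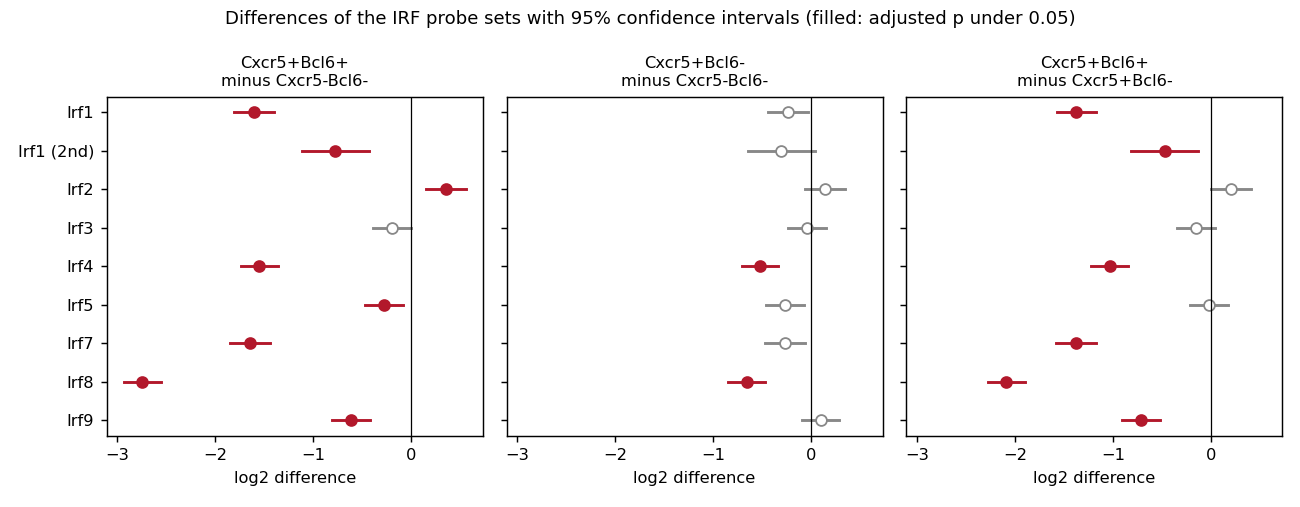
Differences of the 9 IRF probe sets in each comparison (x axis, log2 difference; points, estimates; bars, 95% confidence intervals; filled points, adjusted p under 0.05). Irf8 lies farthest to the left in all 3 panels, Irf2 is the one called to the right, and only Irf4 and Irf8 are called between Cxcr5+Bcl6- and Cxcr5-Bcl6- cells.

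Where along the sort the IRF genes differed was compared by subtracting the difference across Cxcr5 (Cxcr5+Bcl6- minus Cxcr5-Bcl6-) from the difference across Bcl6 (Cxcr5+Bcl6+ minus Cxcr5+Bcl6-) in the same limma fit. Both differences use the Cxcr5+Bcl6- arrays, and this contrast was added after the data had been seen. It was below 0 and passed for 4 of 8 IRF genes, where 8.24% of all named probe sets were called, 4.16% below 0 and 4.08% above. Irf8 differed by -1.43 between the 2 steps (adjusted p = 8.97e-05), Irf1 by -1.14 (adjusted p = 0.000765) and Irf7 by -1.12 (adjusted p = 0.000954). Irf9 differed by -0.81 (adjusted p = 0.00538), a call lost without Cxcr5+Bcl6- replicate 1 (-0.75, adjusted p = 0.123). For these 4 the difference across Bcl6 was the lower of the pair. For Irf4 the value was -0.51 and did not pass (adjusted p = 0.0564). It passed in 7 of 18 alternative settings, among them centring on receptor genes (-0.93, adjusted p = 0.00153). Irf2 (0.068), Irf3 (-0.11) and Irf5 (0.24) did not pass either, and centring on receptor genes turned the sign of Irf2 (-0.35) and Irf5 (-0.17) and made Irf3 a call (-0.53, adjusted p = 0.0438).

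**Figure D3:**
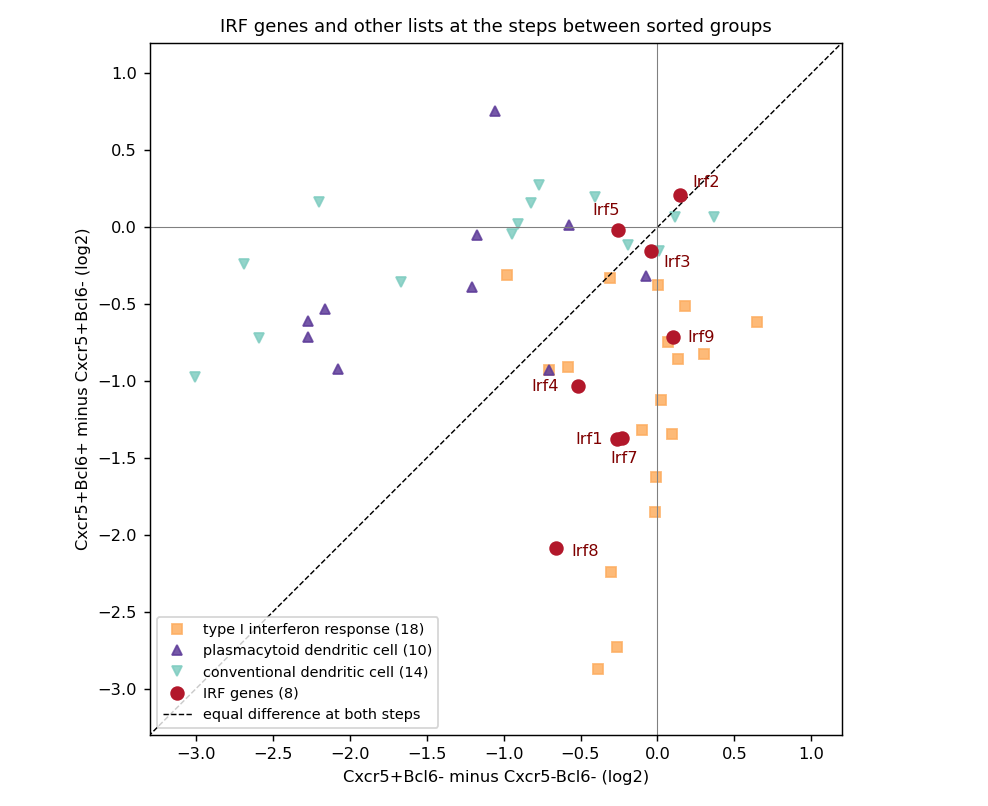
Difference across Bcl6 (y axis, Cxcr5+Bcl6+ minus Cxcr5+Bcl6-, log2) against difference across Cxcr5 (x axis, Cxcr5+Bcl6- minus Cxcr5-Bcl6-, log2) for 8 IRF genes, 18 type I interferon response genes and 10 and 14 dendritic cell marker genes, with the line of equal differences. Irf1, Irf7, Irf8 and Irf9 lie below the line among the interferon response genes, and most dendritic cell markers lie above it.

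Genes that answer type I interferon fell in the same comparisons as Irf7 and Irf9. Of 18 measured, 17 fell and none rose in Cxcr5+Bcl6+ against Cxcr5-Bcl6- cells, where 17.7% of all named probe sets were called lower and 17.6% higher. The 18 genes had a median difference of -1.27. Those with the smallest p were Ifit3 (-2.99, limma adjusted p = 1.47e-09), Ifit1 (-2.54), Rtp4 (-3.26) and Zbp1 (-1.87). In Cxcr5+Bcl6+ cells 10 of the 18 were receptor-range, Ifit3 (6.79), Ifit1 (7.11) and Rtp4 (7.05) among them, against 1 in Cxcr5+Bcl6- cells and 3 in Cxcr5-Bcl6- cells. Rtp4 is a chaperone of receptors, the Ifit proteins bind foreign RNA, and Zbp1 senses nucleic acid in the Z form. All 18 fell against Cxcr5+Bcl6- cells, with a median of -0.92, where 13.0% of all named probe sets were called lower and 13.4% higher. Between Cxcr5+Bcl6- and Cxcr5-Bcl6- cells 3 fell, 1 rose and 14 did not pass, with a median of -0.0098. Of all named probe sets 5.93% were called lower there and 5.22% higher. Oas2 fell there by 0.98 (limma adjusted p = 3.59e-05) and Mx1, an antiviral GTPase, rose by 0.65 (limma adjusted p = 0.00256). The step contrast was below 0 and called for 13 of 18, and above 0 for 1. Of all named probe sets 4.16% were called below 0 and 4.08% above.

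Interferon gamma targets of Irf1 had a like pattern. In Cxcr5+Bcl6+ against Cxcr5-Bcl6- cells 13 of 15 fell and none rose, with a median of -0.59. Against Cxcr5+Bcl6- cells 13 fell and 1 rose, with a median of -0.69. Of all named probe sets 17.7% were called lower and 17.6% higher against Cxcr5-Bcl6- cells, and 13.0% and 13.4% against Cxcr5+Bcl6- cells. The immunity-related GTPase Iigp1 was receptor-range in Cxcr5+Bcl6+ cells (6.64), so its differences of -4.16 (limma adjusted p = 2.5e-10) and -3.81 (limma adjusted p = 4.98e-10) are lower limits. Irgm1, another such GTPase, differed by -2.39 and -2.37, the guanylate-binding protein Gbp5 by -1.98 and -2.07, and Cd274, which encodes PD-L1, by -1.94 and -1.53, all called. Between Cxcr5+Bcl6- and Cxcr5-Bcl6- cells, where 11.1% of all named probe sets were called, 2 of 15 fell and 13 did not pass. The 2 were Cd274 (-0.41) and Iigp1 (-0.35). Leaving out either Cxcr5-Bcl6- array left 1 of these calls, and leaving out either Cxcr5+Bcl6- array left 0.

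Upstream of the IRFs, interferon receptor chains and Jak-Stat genes split. In Cxcr5+Bcl6+ against Cxcr5-Bcl6- cells 4 of 10 rose and 4 fell, with a median of -0.045. Of all named probe sets 17.6% were called higher there and 17.7% lower. The interferon-induced brakes fell, Usp18 (-3.499, limma adjusted p = 4.69e-10), which was receptor-range in Cxcr5+Bcl6+ cells (7.56), and Socs1 (-2.02, limma adjusted p = 2.66e-08). The receptor chain Ifngr2 fell by 0.89, and Ifnar2, a chain of the type I interferon receptor, rose by 0.73 (limma adjusted p = 0.000125). Among 16 sensors and adaptors of nucleic acid sensing, 8 fell and 2 rose in the same comparison, with a median of -0.27. Tlr7, which senses single-stranded RNA, fell by 2.36, with a receptor-range level of 5.87 in Cxcr5+Bcl6+ cells. The cytosolic RNA sensor Ifih1 (-1.53), its relative Dhx58 (-1.29, receptor-range in Cxcr5+Bcl6+ cells) and the ubiquitin ligase Traf6 (-1.07) fell too (for Traf6, limma adjusted p = 2.65e-06). Against Cxcr5+Bcl6- cells 2 of 10 receptor and Jak-Stat genes rose and 4 fell, and 2 of 16 sensor genes rose and 6 fell. Of all named probe sets 13.4% were called higher there and 13.0% lower. The receptor and Jak-Stat count there dropped to 3 without Cxcr5+Bcl6- replicate 2.

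Partners and cofactors of IRF proteins were mixed. Of 20, 5 rose and 5 fell in Cxcr5+Bcl6+ against Cxcr5-Bcl6- cells, with a median of -0.0504, where 17.6% of all named probe sets were called higher and 17.7% lower. Batf, the AP-1 protein that binds DNA with Irf4 and Irf8, differed by 0.13 there and did not pass, rose by 0.60 in Cxcr5+Bcl6- against Cxcr5-Bcl6- cells (limma adjusted p = 0.0029), and fell by 0.47 in Cxcr5+Bcl6+ against Cxcr5+Bcl6- cells (limma adjusted p = 0.00589). Jun (-1.26) and Junb (-0.78) fell in Cxcr5+Bcl6+ against Cxcr5-Bcl6- cells, and Swap70, an Irf4-interacting signalling protein, fell by 1.58 (limma adjusted p = 2.93e-07). Spib, the Ets partner of Irf4 and Irf8 in B cells and plasmacytoid dendritic cells, fell by 1.06 in Cxcr5+Bcl6- against Cxcr5-Bcl6- cells (limma adjusted p = 3.24e-05). It rose by 0.76 in Cxcr5+Bcl6+ against Cxcr5+Bcl6- cells (limma adjusted p = 0.000137).

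**Figure D4:**
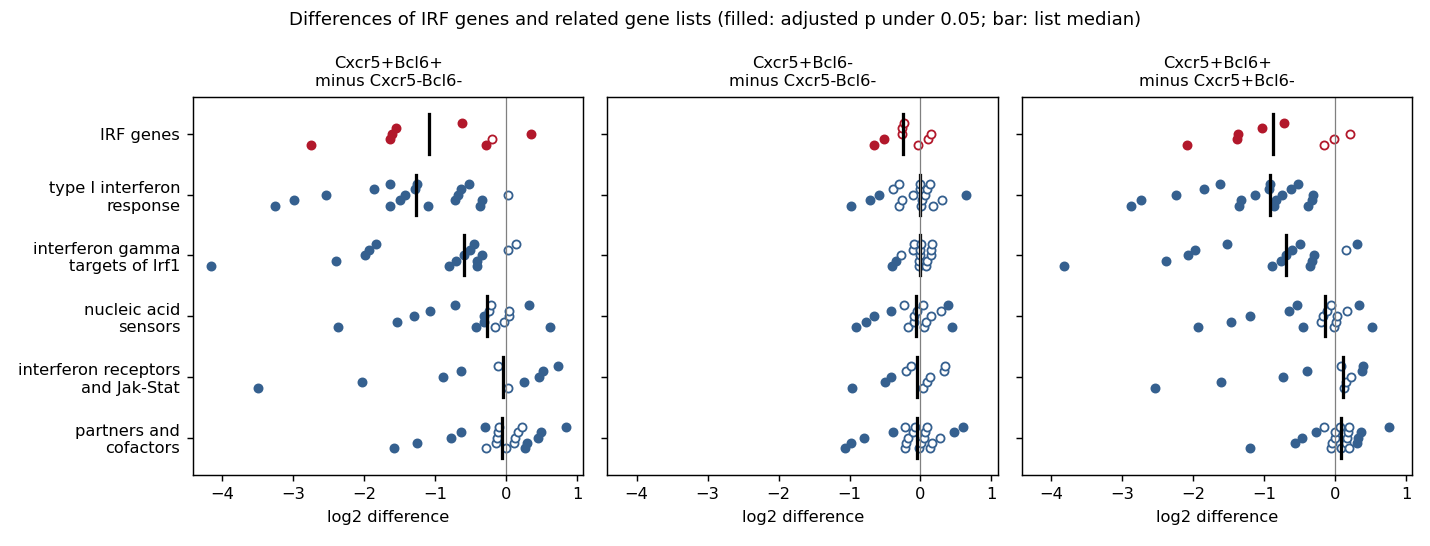
Log2 differences of the IRF genes and of 5 lists of related genes in each comparison (x axis, log2 difference; points, genes; filled, adjusted p under 0.05; bars, list medians). The IRF genes and both interferon response lists are centred left of 0 in the outer panels, with medians of -1.08, -1.27 and -0.59 in the first, whereas in the middle panel the IRF median is -0.24 and those of the interferon response lists are near 0.

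Genes whose effector programmes need Irf4 were taken as a list of 14 measured, which holds the sort genes Bcl6 and Cxcr5 and so is no independent set. In Cxcr5+Bcl6+ against Cxcr5-Bcl6- cells 5 rose and 8 fell, and against Cxcr5+Bcl6- cells 3 rose and 9 fell. Of all named probe sets 17.6% were called higher and 17.7% lower against Cxcr5-Bcl6- cells, and 13.4% and 13.0% against Cxcr5+Bcl6- cells. Prdm1, which encodes the Bcl6 antagonist Blimp-1 and is an Irf4 target, fell in both comparisons, with differences of -2.12 (limma adjusted p = 5.41e-08) and -2.33 (limma adjusted p = 6.07e-08), against a receptor-range level of 7.65 in Cxcr5+Bcl6+ cells. So did the cytokine gene Il17a (-3.13 and -3.80) and the glycolytic hexokinase gene Hk2 (-1.64 and -1.33). Il10 fell by 3.06 against Cxcr5+Bcl6- cells, likewise against a receptor-range level (7.71). In Cxcr5+Bcl6- against Cxcr5-Bcl6- cells, where Irf4 fell, 6 rose and 2 fell, beside 5.22% of all named probe sets called higher and 5.93% lower. Among the 6 listed genes that rose were Il21, the follicular helper cytokine gene, by 1.27, Maf by 0.79 and Il17a by 0.67. That count of 8 was 4 without Cxcr5-Bcl6- replicate 1 and 5 without Cxcr5-Bcl6- replicate 2 or either Cxcr5+Bcl6- array.

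Markers of dendritic cells, which use Irf8, Irf7 and Irf4, also moved across the groups. All 10 measured plasmacytoid dendritic cell genes fell in Cxcr5+Bcl6+ against Cxcr5-Bcl6- cells and 9 of 10 in Cxcr5+Bcl6- against Cxcr5-Bcl6- cells. Against Cxcr5-Bcl6- cells, 17.7% of all named probe sets were called lower and 17.6% higher in Cxcr5+Bcl6+ cells. In Cxcr5+Bcl6- cells these shares were 5.93% and 5.22%. The summed linear signal of the plasmacytoid genes ranged from 3318 to 3370.1 in Cxcr5+Bcl6+ cells, from 4297 to 4328 in Cxcr5+Bcl6- cells and from 9851 to 10175 in Cxcr5-Bcl6- cells. In Cxcr5+Bcl6+ cells 4 of the 10, Siglech and Pld4 among them, were receptor-range, against 1 in Cxcr5+Bcl6- cells and 0 in Cxcr5-Bcl6- cells. Siglech differed by -2.27 across Cxcr5 and by -0.61 across Bcl6, and Pld4, an endolysosomal nuclease, by -2.27 and -0.71, all called. Of 14 conventional dendritic cell genes 9 fell and 1, Naaa (0.43), rose in Cxcr5+Bcl6+ against Cxcr5-Bcl6- cells, Naaa being named after its value was seen, and 10 fell and none rose in Cxcr5+Bcl6- against Cxcr5-Bcl6- cells. Their summed signal was 2746 to 2759 in Cxcr5+Bcl6+ cells, 2901 to 2951 in Cxcr5+Bcl6- cells and 8814 to 9626 in Cxcr5-Bcl6- cells, with 10, 6 and 3 of the 14 below the receptor percentile in the same order. The chemokine gene Ccl22 differed by -3.98, against a receptor-range level in Cxcr5+Bcl6+ cells (7.40), and by -3.005. In Cxcr5+Bcl6+ against Cxcr5+Bcl6- cells, where Irf8, Irf7, Irf1, Irf4 and Irf9 fell, 7 of 10 plasmacytoid dendritic cell genes also fell and 1 rose. Their median difference was -0.46. The lists share genes: Bst2 (-0.93) is also a type I interferon response gene here, and Spib (0.76), the 1 that rose, is also among the IRF partners. Of the conventional dendritic cell genes 3 of 14 fell in the same comparison and none rose. Of all named probe sets 13.0% were called lower there and 13.4% higher. The step contrast was above 0 and called for 7 of 10 plasmacytoid and 10 of 14 conventional dendritic cell genes. It was below 0 and called for none. Of all named probe sets 4.08% were called above 0 and 4.16% below. Of the 1223 receptor probe sets 149 were also called above 0 and 0 below, with a median of 0.37. In Cxcr5+Bcl6- cells 1 of the 10 plasmacytoid and 6 of the 14 conventional genes were already receptor-range, and these could fall little further across Bcl6. Why the sign of the marker lists differed from that of the IRF genes was not tested. The part of these cells' markers in the IRF differences was not tested.

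B cell and macrophage genes, whose cells also express Irf8 and Irf5, and plasma cell genes, whose cells express Irf4, were set beside them. Of 13 B cell genes 10 rose and 1 fell in Cxcr5+Bcl6+ against Cxcr5-Bcl6- cells, where 17.6% of all named probe sets were called higher. Of the 1223 receptor probe sets 423 were called higher there and 1 lower, so a rise of a receptor-range gene is not read as expression. In Cxcr5+Bcl6- against Cxcr5-Bcl6- cells 7 rose and 1 fell, where 5.22% of all named probe sets were called higher. The summed signal of the B cell genes was 4226 to 4401 in Cxcr5+Bcl6+ cells, 2982 to 3129.9 in Cxcr5+Bcl6- cells and 2023 to 2198 in Cxcr5-Bcl6- cells. Ms4a1, which encodes CD20, rose by 1.89 and 1.18 in these comparisons, against a receptor-range level in Cxcr5-Bcl6- cells. Of the 13, 8 lay below the receptor percentile in Cxcr5+Bcl6+ cells, 3 in Cxcr5+Bcl6- cells and 8 in Cxcr5-Bcl6- cells. Of 12 macrophage and monocyte genes 2 rose and 2 fell in Cxcr5+Bcl6+ against Cxcr5-Bcl6- cells, beside 35.3% of all named probe sets called. Lyz2 (1.096, limma adjusted p = 2.5e-05) and C1qc (0.27) rose. C1qc was receptor-range in both groups (6.66 and 6.39), and the median difference of the receptor probe sets was 0.22. Mpeg1 (-3.62) and Tyrobp (-2.46) fell to receptor-range levels in Cxcr5+Bcl6+ cells. Of the 12, 10, 6 and 7 lay below the receptor percentile in Cxcr5+Bcl6+, Cxcr5+Bcl6- and Cxcr5-Bcl6- cells. Their summed signal was 2783 to 2979, 2771 to 2807 and 4469 to 4505 in the same groups. Of 7 plasma cell genes 2 were called in Cxcr5+Bcl6+ against Cxcr5-Bcl6- cells, beside 35.3% of all named probe sets. These were Xbp1 (-1.02) and Jchain (-1.08, receptor-range in Cxcr5+Bcl6+ cells), both lower. The summed signal of the plasma cell genes was 6116 to 6461 in Cxcr5+Bcl6+ cells, 8356 to 8723 in Cxcr5+Bcl6- cells and 9373 to 9475 in Cxcr5-Bcl6- cells. T cell core genes gave a summed signal of 67429.7 to 70400.2 in Cxcr5+Bcl6+ cells, 66529 to 66559 in Cxcr5+Bcl6- cells and 61893 to 62017 in Cxcr5-Bcl6- cells. Of 11, 5 rose and 2 fell in Cxcr5+Bcl6+ against Cxcr5-Bcl6- cells, beside 35.3% of all named probe sets called. Cd4 was 0.79 higher (limma adjusted p = 2.76e-05). Leaving out Cxcr5-Bcl6- replicate 2 gave 7 called macrophage and monocyte genes in that comparison, and leaving out either Cxcr5-Bcl6- array gave 4 called T cell core genes. The part of these lists in the IRF differences was not tested.

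The genes whose levels ran closest to each member over the 6 arrays were found by the root mean square difference of log2 values centred on their own means, among 19930 genes. Such likeness over 6 arrays in 3 groups reflects mainly the group means. The closest to Irf8 were Car12 (0.107 log2 units), Gpr18 (0.117) and the interferon response gene Ifit1 (0.149). The closest to Irf7 were Hk2 (0.030), Slc14a1 (0.051) and Gfod1 (0.0655), and to Irf1 Itgb8 (0.041), Cdca7 (0.051) and Gm4759 (0.055). The closest to Irf4 were Atad3a (0.036), Smad7 (0.05003) and Gart (0.05007), and to Irf9 Id2 (0.046), Galnt3 (0.048) and Cdca7l (0.049). Irf2 had Marveld1 (0.0090), Cramp1l (0.016) and Zfp668 (0.022), and Irf5 had Ralgapa1 (0.018), Ctdp1 (0.024) and Cdk17 (0.027). Within the family, Irf1 and Irf7 were the closest pair, at 0.090.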

How the data were processed

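Log2 levels were analysed for 3 sorted groups of 2 arrays. Per the labels, total RNA was biotin-labelled with a whole-transcript kit, and the deposited log2 values were normalised by the authors; the submitters' processing notes name GCOS 1.1, RMA and Affymetrix Expression Console, with no settings. The log2 scale was read from the values' range. No genome build is given in the sources used here; without scanner files, other background corrections were not tried. Of 35556 rows, 21789 carried 1 symbol and 1621 several, and no gene was named from a row with several. Symbols came from the platform's table, 21698 of them updated through Entrez identifiers.

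All 23410 named probe sets were fitted with limma 3.58.1 in R 4.3.3 (group means over 6 arrays, eBayes, two-sided moderated test, Benjamini-Hochberg adjustment, threshold 0.05, no fold threshold). The scripts were tested on simulated data. Counts of genes used 1 probe set a gene, that with the highest mean. The number of arrays limits the precision. The members, the 12 gene lists and the tests were chosen with earlier results of these data known. All members were named, with up to 4 genes of smallest p per list and comparison, Stat2, Batf, Spib and Prdm1, and the 3 genes closest to each member with a call. Listed genes without a singly named probe set were not analysed here. Promoters came from RefSeq (GRCm38.p6). Alternatives varied the centring, quantile normalisation, filters, trend, thresholds, arrays used and replicate block.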

Additional observations from a re-analysis of the deposited data

How the results depend on the processing

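Over 19 alternative settings the calls of Irf1 (bright probe set), Irf4, Irf7, Irf8 and Irf9 kept their direction and passed in both comparisons of Cxcr5+Bcl6+ cells. Irf8 ranged from -2.99 to -2.69 against Cxcr5-Bcl6- cells and from -2.42 to -2.05 against Cxcr5+Bcl6- cells, and Irf4 from -1.79 to -1.48 and from -1.36 to -0.99. Leaving out 1 array at a time gave 6 to 7, 2 to 2 and 5 to 5 IRF genes called between Cxcr5+Bcl6+ and Cxcr5-Bcl6-, Cxcr5+Bcl6- and Cxcr5-Bcl6-, and Cxcr5+Bcl6+ and Cxcr5+Bcl6- cells. A least change of 1.5-fold left 1 called between Cxcr5+Bcl6- and Cxcr5-Bcl6- cells, Irf8, since Irf4 is below that fold. Signs turned only for small differences that did not pass. With centring on receptor genes Irf3 was 0.045 for Cxcr5+Bcl6- against Cxcr5-Bcl6- cells, Irf2 was -0.12 for Cxcr5+Bcl6+ against Cxcr5+Bcl6- cells, and the contrast of steps was -0.35 for Irf2 and -0.17 for Irf5. With centring on array medians it was -0.035 for Irf2. Leaving out 1 array gave ranges of -0.085 to 0.0040 for Irf3 in Cxcr5+Bcl6- against Cxcr5-Bcl6- cells and of -0.053 to 0.022 for Irf5 between the Cxcr5+ groups. For the contrast of steps it gave -0.019 to 0.15 for Irf2 and -0.53 to 0.20 for the second Irf1 probe set. Irf1 passed between Cxcr5+Bcl6- and Cxcr5-Bcl6- cells with an intensity trend (adjusted p = 0.0442). The second Irf1 probe set passed there without Cxcr5-Bcl6- replicate 2 (-0.55, adjusted p = 0.0329). The causes were not tested. Over all named probe sets, centring on receptor genes changed the share of calls that were higher to 16.4% against 49.8% between Cxcr5+Bcl6+ and Cxcr5-Bcl6- cells, to 67.5% against 46.8% for Cxcr5+Bcl6- against Cxcr5-Bcl6- cells, and to 5.59% against 50.8%, with 12610 calls against 6185, between the Cxcr5+ groups. Leaving out a Cxcr5+Bcl6- array cut the calls between Cxcr5+Bcl6- and Cxcr5-Bcl6- cells to 1317 or 1401 and those between the Cxcr5+ groups to 3617 or 3820. A 1.5-fold minimum left 3470, 822 and 1952 calls in the 3 comparisons. Testing all rows left 1579 between Cxcr5+Bcl6- and Cxcr5-Bcl6- cells. Counts of the interferon response lists in both comparisons of Cxcr5+Bcl6+ cells stayed within 1.5 times the main count, except for interferon gamma targets at the 1.5-fold minimum (8 and 9). Marker lists moved more, as in 2 to 11 B cell genes and 4 to 12 conventional dendritic cell genes called for Cxcr5+Bcl6+ against Cxcr5-Bcl6- cells, the low ends being from testing only probe sets brighter than the median. The labels do not say that an array number marks a shared animal or day, and the numbers were not taken as pairs. Deviations of same-numbered arrays from their group means correlated at 0.020, -0.116 and 0.121 between the groups over all rows and at -0.046, -0.234 and 0.258 over the named probe sets, so not every pair was above 0.1. With the number as a replicate block, 7, 2 and 5 IRF genes were called, as without it, and 7942, 2411 and 5862 probe sets.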
